A study of Mus musculus with 12 samples.

Results

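This report describes 10 genes for inhibitory immune surface molecules among the 57278 genes counted in mouse pancreatic tumor cells: Lilrb4a, Lilrb4b, Cd274, Pdcd1lg2, Cd276, Vtcn1, Cd47, Nt5e, Entpd1 and Pvr. The set was chosen by function, with the response of these same libraries to rDKK3 already known and Lilrb4 at its head. For the members, differences between treated and untreated cells are therefore given below as a description, and only differences among untreated lines, which did not enter the choice, are tested. Counts of calls with rDKK3 stand beside the share of all genes called, and nothing is read from those of the members. Genes outside the set were tested within lines. All 10 genes were found in the count table by symbol, and 7 of them passed the filter on low counts. Lilrb4a, Pdcd1lg2 and Entpd1 did not pass it and had at most 3 counts in every library.

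DDKC tumor cells are cell lines grown from pancreatic tumors of mice that carry Dkk3-/- and Ptf1aCre/+, in which Cre is driven by Ptf1a in the pancreatic epithelium and Dkk3 is deleted in every cell of the animal. The lines DDKC_9750, DDKC_9790 and DDKC_9804 were cultured untreated or with rDKK3, the commercially made soluble DKK3 protein, and RNA was sequenced from 2 libraries of each line and condition, 12 in all. Both conditions share the Dkk3 deletion and the Ptf1aCre allele, and the line was taken as the replicate (n = 3). The sources used here do not tie a concentration of rDKK3 to the RNA samples, and the animal behind each line and the origin of the 2 libraries from the same or separate cultures are not given in them. Dkk3 had 0 counts in 11 of the 12 libraries and 1 count in an rDKK3 library of DDKC_9750. The libraries held 3822987 to 24541083 counts, the untreated ones at least 7520741 and the rDKK3 ones at most 11567095, so that 3 counts, the limit that a count of 0 allows, stood for 0.127 to 0.755 CPM in a library (CPM, the count of a gene per megaread of the scaled library total). These limits cover counting error only. In each line and condition, 1 library had a lower and 1 a higher library number. With a common shift between these series fitted, the counts of such a pair differed by less than sampling noise, and the pair was counted as 1 sample.

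Inhibitory surface molecules let a cell restrain the immune cells that touch it. PD-L1 (Cd274) and PD-L2 (Pdcd1lg2) bind PD-1 on T cells, B7-H3 (Cd276) and B7-H4 (Vtcn1) are further B7 family proteins, CD47 binds SIRPα on phagocytes as a "do not eat me" signal, PVR (CD155) binds TIGIT and CD226, and the ectoenzymes CD39 (Entpd1) and CD73 (Nt5e) turn extracellular ATP into AMP and AMP into adenosine, which dampens T cells. Lilrb4a and Lilrb4b belong to the leukocyte immunoglobulin-like receptors and are best known on mast cells, macrophages and other myeloid cells. Lilrb4a, also called gp49B, carries immunoreceptor tyrosine-based inhibitory motifs (ITIMs) that recruit phosphatases, whereas Lilrb4b, also called gp49A, lacks them.

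The Lilrb4 pair was examined first, because the 2 genes are near-copies on chromosome 10. Lilrb4b lies at chr10:51356728-51362799 and Lilrb4a at chr10:51367052-51372707, both on the plus strand of GRCm39. In the GENCODE M39 basic models their coding exons 1 to 7 had equal lengths, and 36 of 907 aligned coding bases differed, an identity of 96%. The following coding stretches of 60 bases are shown because they are where the pair differs most. The capitals mark the 9 bases that differ, and the stretches lie at chr10:51367668-51367727 in Lilrb4a and chr10:51357374-51357433 in Lilrb4b.
Lilrb4a: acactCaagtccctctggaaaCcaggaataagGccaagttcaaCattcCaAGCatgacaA
Lilrb4b: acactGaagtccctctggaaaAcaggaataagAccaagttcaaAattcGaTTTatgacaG

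The part of the coding sequence after exon 7, which encodes the end of the cytoplasmic tail, sets the inhibitory gene apart from its neighbor. It is shown for that reason, from the reference genome, with the codons of each ITIM match in capitals. In Lilrb4a it spans 141 bases over 2 exons (chr10:51372090-51372337) and holds 2 matches, and in Lilrb4b it spans 45 bases of exon 8 (chr10:51361809-51361853) and holds 0.
Lilrb4a: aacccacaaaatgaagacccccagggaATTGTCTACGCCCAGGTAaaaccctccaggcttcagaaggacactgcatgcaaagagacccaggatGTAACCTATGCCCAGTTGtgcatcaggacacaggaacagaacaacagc
Lilrb4b: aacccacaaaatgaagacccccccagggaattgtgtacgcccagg
The tails start alike. A run of c is 5 bases long in Lilrb4a and 7 in Lilrb4b, exon 8 as a whole is 2 bases longer in Lilrb4b (68 against 66 bases), and the Lilrb4b coding sequence ends soon after in a shifted reading frame. The coding sequences are 1005 bases for 335 residues in Lilrb4a and 909 bases for 303 residues in Lilrb4b.

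A neighboring gene bears on how the pair was counted. Gm49339, a protein-coding readthrough gene (chr10:51356708-51372709 in the count table), joins the first exon of Lilrb4b to the exons of Lilrb4a on the same strand. In the M39 models only 121 of the 1462 exonic bases of Lilrb4a (8.28%), its first exon, belonged to Lilrb4a alone, against 1722 of 1836 (93.8%) for Lilrb4b and 2 of 1457 for Gm49339. Per the study's methods, reads were counted in Union mode, which discards a read that touches the exons of more than 1 gene.

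**Figure D1:**
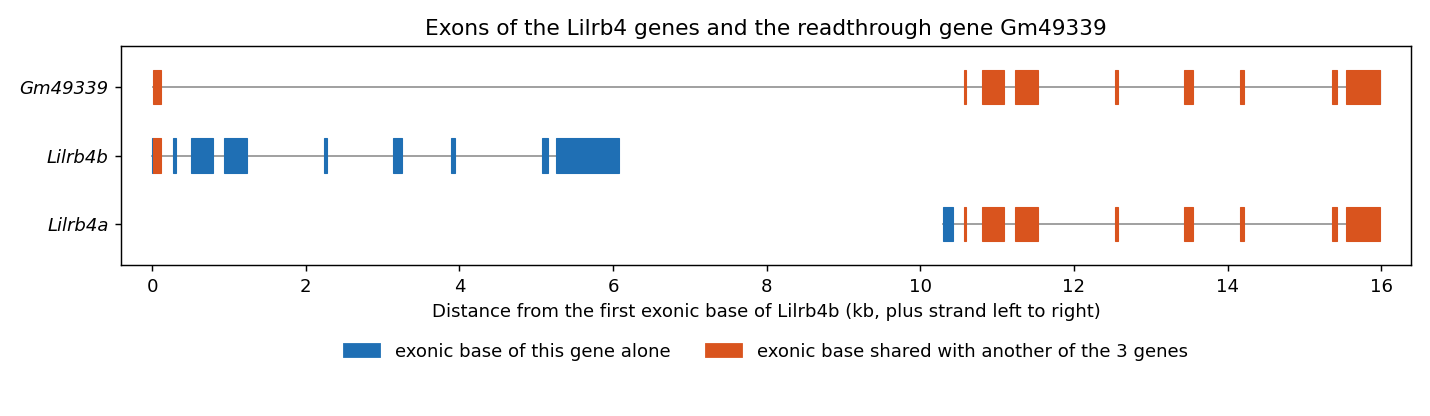
Exon map of Gm49339, Lilrb4b and Lilrb4a, with the distance in kb from the first exonic base of Lilrb4b on the x axis and 1 row for each gene. Boxes are exons of the M39 basic models, blue where a base belongs to that gene alone and orange where it is shared; 121 of 1462 exonic bases of Lilrb4a are blue, against 1722 of 1836 for Lilrb4b.

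In the whole table, 156 of 165 protein-coding genes without an exonic base of their own had 0 counts in all libraries (94.5%), against 4976 of 21479 with some (23.2%). Among the 83 with a share of their own under 10%, as Lilrb4a has, 39 had 0 counts (47%). Gm49339 had 0 counts. Lilrb4a had 0 counts in 10 libraries and 1 and 3 counts in the rDKK3 libraries of DDKC_9804, the libraries in which Lilrb4b was highest. Reads from the exons that Lilrb4a shares with Gm49339 are not in its count, so its low count does not by itself measure a low level of RNA. Every exonic base of the other 8 members belonged to that gene alone.

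The counts of Lilrb4b carry the opposite limit. Of its 1787 transcript words of 50 bases, the length of a sequenced read, 434 (24.3%) also occur in the Lilrb4a transcript, and aligned coding windows of that length differ by a median of 2 bases. A single read from a shared word fits both genes, although the other read of its pair may place it, and the share of Lilrb4b counts that came from Lilrb4a was not tested. The levels below are those of reads assigned to Lilrb4b.

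Lilrb4b was present at very different levels in the untreated lines. The untreated libraries of DDKC_9804 had 19.0 and 22.5 CPM, from 215 and 533 counts, and those of DDKC_9790 had 1.52 and 1.5 CPM, from 11 and 24 counts. Both untreated libraries of DDKC_9750 had 0 counts. Against the upper limit of 0.10 CPM that 3 counts over this pair of libraries allow, the level was at least 207-fold higher in DDKC_9804 and at least 15-fold higher in DDKC_9790. The 3 lines did not overlap, and the difference among them had an adjusted p = 3.69e-120 by edgeR's quasi-likelihood test. This test, like those within a line, compares libraries and not cultures.

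With rDKK3, Lilrb4b was higher in the lines that already had it. In DDKC_9804 the rDKK3 libraries reached 291 and 336 CPM, 15.1-fold above the untreated ones on the means. In DDKC_9790 they reached 5.88 and 8.13 CPM, a 4.64-fold difference. The rDKK3 libraries of DDKC_9750 had 0 and 2 counts, within the limit that 0 counts allow, and no fold is given for that line. The within-line differences in mean log2 CPM (prior count 2) were 3.90 in DDKC_9804 and 2.07 in DDKC_9790. Fitted over the 3 lines on summed counts, the log2 fold change was 3.29 ± 0.42 (SE), with a 95% interval of 2.23 to 4.36. Lilrb4b was not called in this fit (adjusted p = 0.597, edgeR), to which DDKC_9750 brought only 2 counts. Since this response was known when the set was chosen, nothing is read from the interval. The means over lines, 7.42 ± 11.6 CPM untreated and 107 ± 179 CPM with rDKK3 (SD, n = 3), overlapped because the lines start so far apart.

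**Figure D2:**
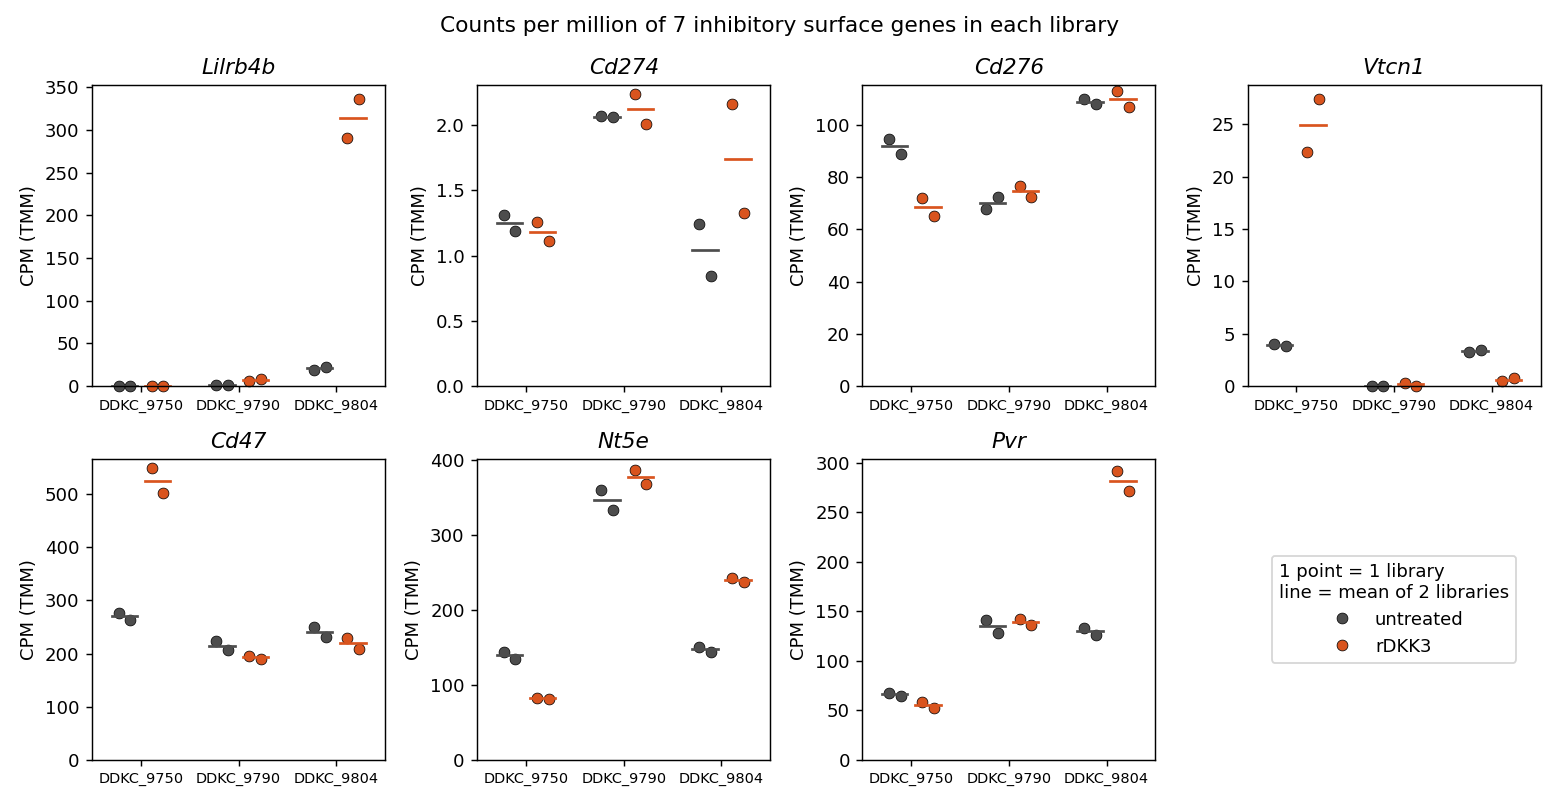
CPM (TMM-scaled, linear y axis from 0) of the 7 members that passed the filter, by DDKC line on the x axis; each point is 1 library, grey untreated and orange with rDKK3, and the bar is the mean of 2 libraries. Lilrb4b and Pvr stand out in DDKC_9804 with rDKK3 (means 313 and 282 CPM), Cd47 and Vtcn1 in DDKC_9750 with rDKK3 (526 and 24.9 CPM), and Nt5e is highest in DDKC_9790 in either condition.

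Since Lilrb4 genes are myeloid and mast cell genes, the libraries were checked for those cells. Of 12 myeloid markers, 7 had at most 3 counts in every library: Ptprc, Adgre1, Itgam, Tyrobp, Laptm5, Lyz2 and Spi1. The summed level of the 12 was 145 to 146 CPM in the rDKK3 libraries of DDKC_9804, where Lilrb4b was highest, 240 to 257 CPM in its untreated libraries, and 999 to 1038 CPM in the rDKK3 libraries of DDKC_9750, where Lilrb4b was at the limit of detection. Most of that sum was Cd14, a lipopolysaccharide co-receptor, with means of 123 to 1004 CPM over the 6 groups.

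Of the other 3 myeloid markers that passed the filter, Cd68 and Csf1r rose with rDKK3 in DDKC_9790 and DDKC_9804, as the Lilrb4b level did, by the within-line test. Cd68, a lysosomal protein abundant in macrophages, had 23.2 CPM untreated and 38.2 CPM with rDKK3 in DDKC_9790 and 2.7 and 6.86 CPM in DDKC_9804. Csf1r, the receptor for macrophage colony-stimulating factor, had 5.35 and 7.92 CPM in DDKC_9790 and 7.53 and 10.5 CPM in DDKC_9804. Cd14 went the other way in DDKC_9804, from 236 to 127 CPM, and Fcgr3 passed the test in no line. The part of such cells in the Lilrb4b levels was not tested.

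The 7 mast cell markers summed to at most 0.271 CPM in any library and were at 0 in both rDKK3 libraries of DDKC_9804, and the 9 lymphoid markers summed to at most 0.158 CPM. The 7 ductal or epithelial markers, keratins among them, all passed the filter, though Epcam had at most 2.08 CPM on the mean in any group. Their sum was lower with rDKK3 in each line, at 5641 to 5774 CPM untreated and 4060 to 4116 CPM with rDKK3 in DDKC_9750, 9480 to 9947 and 7713 to 8277 CPM in DDKC_9790, and 5138 to 5442 and 4151 to 4317 CPM in DDKC_9804. The abundant keratins carry this sum, and the list went both ways, with 2 called higher and 4 lower in DDKC_9750 (22% and 23.6% of all genes), 1 and 5 in DDKC_9790 (18.7% and 21.3%) and 2 and 4 in DDKC_9804 (24.4% and 30.6%). The keratins Krt7, Krt8, Krt18 and Krt19 fell in all 3 lines. In ascending order of line number, Krt7 went from 938 to 442, from 532 to 464 and from 501 to 207 CPM, and Krt19 from 1165 to 782, from 2069 to 1374 and from 1494 to 1067 CPM. Sox9, a ductal transcription factor, rose in all 3, from 109 to 147, from 132 to 149 and from 303 to 396 CPM. Endothelial markers summed to 8.02 to 8.23 CPM in untreated DDKC_9804 and 15.3 to 20.9 CPM with rDKK3, mostly Kdr, and to at most 15.6 CPM in the other libraries. Cdh5 and Tek, also endothelial, had at most 3 counts in every library. Fibroblast markers summed to 5.19 to 13.4 CPM and acinar markers to 0.442 to 12.7 CPM.

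The likeness of other genes to Lilrb4b was looked at after its values were seen. The 5 genes whose log2 CPM followed it most closely over the 6 samples were Osbpl8, Spg11, Ap4e1, R3hdm1 and Hnrnpdl, with Pearson's r of 0.991 to 0.997. These 6 points are 3 lines in 2 conditions, and the samples of DDKC_9750 lie at the limit of detection of Lilrb4b. The list of LILRB4 ligands and signaling partners held 9 genes, of which 6 passed the filter. Their median log2 fold change on summed counts was 0.21, beside -0.01 over all genes tested, and 2, 2 and 5 of them were called higher and 2, 3 and 1 lower in DDKC_9750, DDKC_9790 and DDKC_9804. Of all 15165 genes, 22%, 18.7% and 24.4% were called higher and 23.6%, 21.3% and 30.6% lower in these lines, and the within-line counts of the lists below stand beside the same shares.

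Ptpn6, which encodes the ITIM-binding phosphatase SHP-1, had 16.8, 22.5 and 6.72 CPM in untreated DDKC_9750, DDKC_9790 and DDKC_9804 and 7.63, 18.4 and 2.78 CPM with rDKK3. It fell in each line by the within-line test, though it was picked for its change over lines in the same libraries. Itgav and Itgb3, the subunits of the integrin αvβ3 that binds mouse Lilrb4, had 332 and 42.4 CPM in untreated DDKC_9804 and 400 and 91.2 CPM with rDKK3. In DDKC_9750 Itgav went from 323 to 578 CPM and Itgb3 from 42.2 to 32.7 CPM, and in DDKC_9790 they went from 341 to 323 CPM and from 87.7 to 81.3 CPM. Apoe, a ligand described for human LILRB4, was highest in DDKC_9790, with 76.5 CPM untreated and 61.3 CPM with rDKK3. At lower levels it went the other way, from 2.80 to 3.97 CPM in DDKC_9750 and from 1.51 to 2.80 CPM in DDKC_9804.

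PD-L1 and PD-L2 were scarce. Cd274 (chr19:29344855-29365495) had 5 to 33 counts in each library. Its untreated levels were 1.31 and 1.19 CPM in DDKC_9750, 2.07 and 2.06 CPM in DDKC_9790, and 1.24 and 0.844 CPM in DDKC_9804. DDKC_9790 was above the others, which overlapped, and the highest line stood 1.98-fold over the lowest (adjusted p = 0.00288, edgeR). With rDKK3 the levels were 1.26 and 1.11, 2.24 and 2.01, and 2.16 and 1.33 CPM in these 3 lines. Libraries with and without rDKK3 overlapped in DDKC_9750 and DDKC_9790 but not in DDKC_9804, where the treated mean was 1.67-fold higher on 34 and 20 counts. The within-line test did not call Cd274 in DDKC_9804 (adjusted p = 0.121, edgeR). Over lines the log2 fold change was 0.24 ± 0.33 (SE), with a 95% interval of -0.60 to 1.07. Pdcd1lg2, its neighbor at chr19:29388319-29448561, had 6 counts over all 12 libraries, at most 2 in any.

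The genes that act on PD-L1 were better covered. All 14 listed PD-L1 regulators passed the filter, with a median log2 fold change of 0.09 on summed counts beside -0.01 for all genes. In DDKC_9750, 8 of them were called higher and 2 lower (22% and 23.6% of all genes), in DDKC_9790 3 and 3 (18.7% and 21.3%), and in DDKC_9804 2 and 4 (24.4% and 30.6%). Ifngr2, a subunit of the interferon-γ receptor, had 96.2 CPM untreated and 244 CPM with rDKK3 in DDKC_9750 and 59.7 and 34.7 CPM in DDKC_9804. The direction was opposite in these lines, and in DDKC_9790 the treated mean was 0.974 times the untreated one. Stat3 and Nfkb1 were 1.87-fold higher with rDKK3 in DDKC_9750, 1.11 and 0.881 times the untreated level in DDKC_9790, and 0.931 and 1.09 times it in DDKC_9804.

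Of the other B7 family members, Cd276 was abundant and even, and Vtcn1 was not. Cd276 (chr9:58431581-58462720) had 94.6 and 89.1 CPM in untreated DDKC_9750, 67.9 and 72.3 CPM in DDKC_9790 and 110 and 108 CPM in DDKC_9804. The 3 lines did not overlap, over a 1.55-fold range (adjusted p = 4.59e-41, edgeR). With rDKK3 it had 72.0 and 65.0 CPM in DDKC_9750, 1.34-fold below the untreated mean. In DDKC_9790 it had 76.6 and 72.5 CPM with rDKK3 and in DDKC_9804 113 and 107 CPM, which on the means were 1.06 and 1.01 times the untreated level. Over lines the log2 fold change was -0.11 ± 0.14 (SE), with an interval of -0.46 to 0.23.

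Vtcn1 (chr3:100732775-100804238) moved in opposite directions in the lines that had it. Untreated DDKC_9750 had 4.02 and 3.80 CPM and DDKC_9804 3.27 and 3.42 CPM, close to each other but without overlap, and DDKC_9790 had 0 counts in both libraries. The difference among untreated lines had an adjusted p = 9.17e-32 (edgeR). With rDKK3, DDKC_9750 had 22.4 and 27.4 CPM, 6.36-fold higher, and DDKC_9804 had 0.431 and 0.798 CPM, from 2 and 6 counts, 5.45-fold lower. DDKC_9790 had 2 and 0 counts. The log2 fold change over lines, 0.80 ± 1.26 (SE), had an interval from -2.39 to 3.98 and describes neither line.

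**Figure D3:**
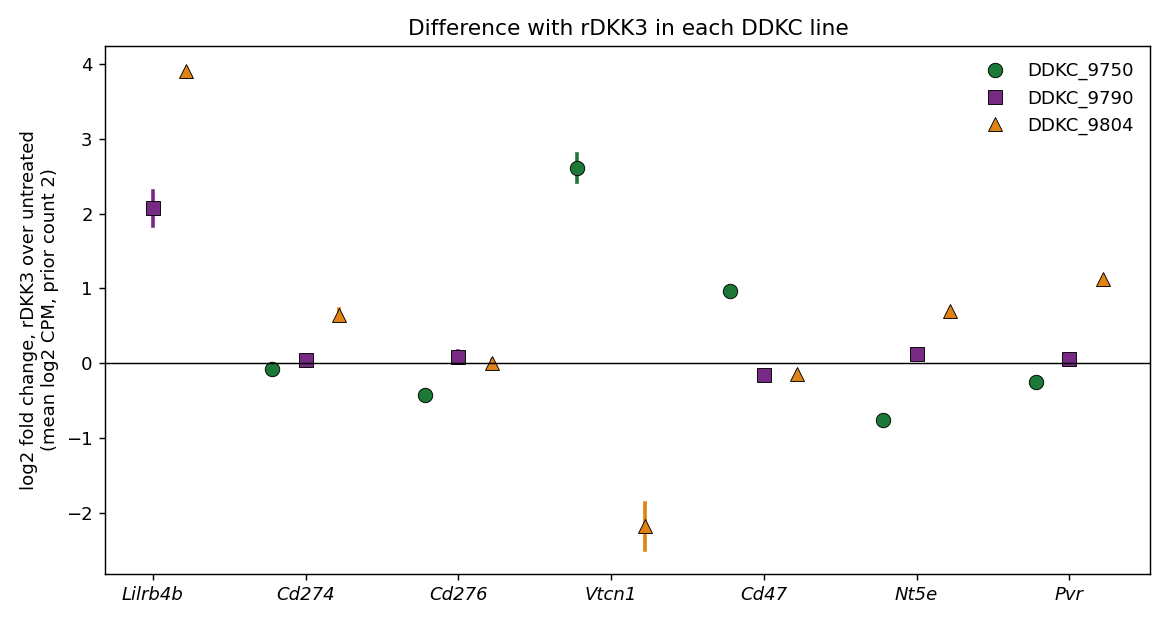
Log2 fold change of rDKK3 over untreated (difference of mean log2 CPM, prior count 2, y axis) for 7 members, with green circles for DDKC_9750, purple squares for DDKC_9790 and orange triangles for DDKC_9804; vertical bars join the values from the lower and the higher library numbers and are often shorter than the symbol. Lilrb4b is above 0 in both lines with a value (2.07 and 3.90), Vtcn1 stands at 2.61 in DDKC_9750 and -2.18 in DDKC_9804, and lines with at most 3 counts in both conditions are left out.

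Cd47 (chr16:49620896-49735373) had the highest total count of the set over all libraries, though not in every line and condition. Untreated DDKC_9750 had 277 and 264 CPM, DDKC_9790 223 and 207 CPM and DDKC_9804 249 and 232 CPM. The lines stood apart by 1.26-fold at most, without overlap of neighbors (adjusted p = 8.52e-30, edgeR). With rDKK3, DDKC_9750 had 549 and 502 CPM, 1.94-fold higher. In DDKC_9790 it had 196 and 189 CPM and in DDKC_9804 229 and 209 CPM, 1.12-fold and 1.10-fold lower. Only DDKC_9750 placed treated libraries above untreated ones, and the log2 fold change over lines was 0.23 ± 0.25 (SE), with an interval of -0.41 to 0.86.

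Pvr (chr7:19637503-19655085) was higher in a different line. The untreated levels were 67.6 and 64.6 CPM in DDKC_9750, 141 and 128 CPM in DDKC_9790 and 133 and 126 CPM in DDKC_9804. DDKC_9790 and DDKC_9804 overlapped, and the highest line stood 2.03-fold over DDKC_9750 (adjusted p = 3.25e-93, edgeR). With rDKK3, DDKC_9804 had 292 and 271 CPM, 2.18-fold higher. DDKC_9750 had 58.6 and 52.5 CPM, 1.19-fold lower, and DDKC_9790 had 142 and 136 CPM, which overlapped its untreated libraries. The log2 fold change over lines was 0.32 ± 0.28 (SE), with an interval of -0.38 to 1.02.

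Receptors for CD47 and PVR, which are known from immune cells, were looked for in the same libraries. Of 16 listed partner receptors, 9 had at most 3 counts in every library, among them Pdcd1, Ctla4 and Cd226. The 4 that passed the filter on summed counts had a median log2 fold change of 0.61, beside -0.01 over all genes tested. Tigit, an inhibitory receptor for PVR, had 45 CPM in untreated DDKC_9750 and 4.8 CPM with rDKK3, 54.9 and 51.8 CPM in DDKC_9790, and 69.3 and 96.0 CPM in DDKC_9804. It fell in DDKC_9750 and rose in DDKC_9804, and all its 1049 exonic bases belonged to it alone.

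Sirpa, the CD47 receptor, was found mostly in DDKC_9750, with 60.1 CPM untreated and 133 CPM with rDKK3, the line in which Cd47 was also higher. It had at most 0.590 CPM on the means in DDKC_9790 and DDKC_9804. Havcr2, which encodes TIM-3, had 23 CPM untreated and 33.3 CPM with rDKK3 in DDKC_9790, 23.3 and 87.8 CPM in DDKC_9804, and at most 0.311 CPM in DDKC_9750. Lag3 had at most 1.01 CPM on the mean in any group.

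The ectoenzymes differed from each other by orders of magnitude. Nt5e (chr9:88209250-88254145), which makes adenosine from AMP, had 144 and 134 CPM in untreated DDKC_9750, 360 and 333 CPM in DDKC_9790 and 150 and 144 CPM in DDKC_9804. DDKC_9790 was well above the others, 2.49-fold over the lowest line, and DDKC_9804 and DDKC_9750 were close to each other (adjusted p among lines = 9.15e-154, edgeR). With rDKK3 it had 82.5 and 81.5 CPM in DDKC_9750, 1.69-fold lower. In DDKC_9790 it had 386 and 368 CPM, 1.09-fold higher, and in DDKC_9804 242 and 237 CPM, 1.63-fold higher. Over lines these nearly cancelled, at a log2 fold change of 0.04 ± 0.28 (SE) with an interval of -0.67 to 0.76.

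Entpd1 (chr19:40600810-40730046), which supplies AMP from ATP and ADP, had 2 counts over all 12 libraries. Among 17 further ATP and adenosine genes, 13 passed the filter on summed counts, with a median log2 fold change of 0.07 beside -0.01 over all genes. Of 14 tested within lines, 7 were called higher and 3 lower in DDKC_9750 (22% and 23.6% of all genes), 1 and 3 in DDKC_9790 (18.7% and 21.3%), and 4 and 5 in DDKC_9804 (24.4% and 30.6%). Adora2a, a receptor for adenosine, had 2.16 CPM untreated and 4.94 CPM with rDKK3 in DDKC_9804, 0.567 and 1.45 CPM in DDKC_9750, and 6.67 and 6.09 CPM in DDKC_9790, where it was highest. Enpp3, which hydrolyses extracellular nucleotides, had 4.97 and 23 CPM in DDKC_9750, 2.22 and 1.65 CPM in DDKC_9790, and at most 0.174 CPM in DDKC_9804. Alpl, a phosphatase that can also release adenosine, and Entpd3, a relative of Entpd1, had at most 2.49 CPM on the mean in any group.

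Per length of exon the order of the members was compared between genes. The paper states that counts made on exons were then aggregated per gene. Whether reads that span exons were lost, which would vary with the exon structure of a gene, was not tested. In untreated cells the means over lines were 50.7 CPM per kb for Nt5e, 36.4 for Cd47, 29.1 for Pvr and 19.0 for Cd276, followed by 4.31 for Lilrb4b, 0.887 for Vtcn1 and 0.356 for Cd274. Pdcd1lg2 and Entpd1 lay at 0.0166 and 0.00296 CPM per kb. The ranges of the leading 4 overlapped between neighbors. With rDKK3, Lilrb4b in DDKC_9804 reached 182 CPM per kb, above every other member in every group, the nearest being Nt5e in DDKC_9790 at 90.6.

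**Figure D4:**
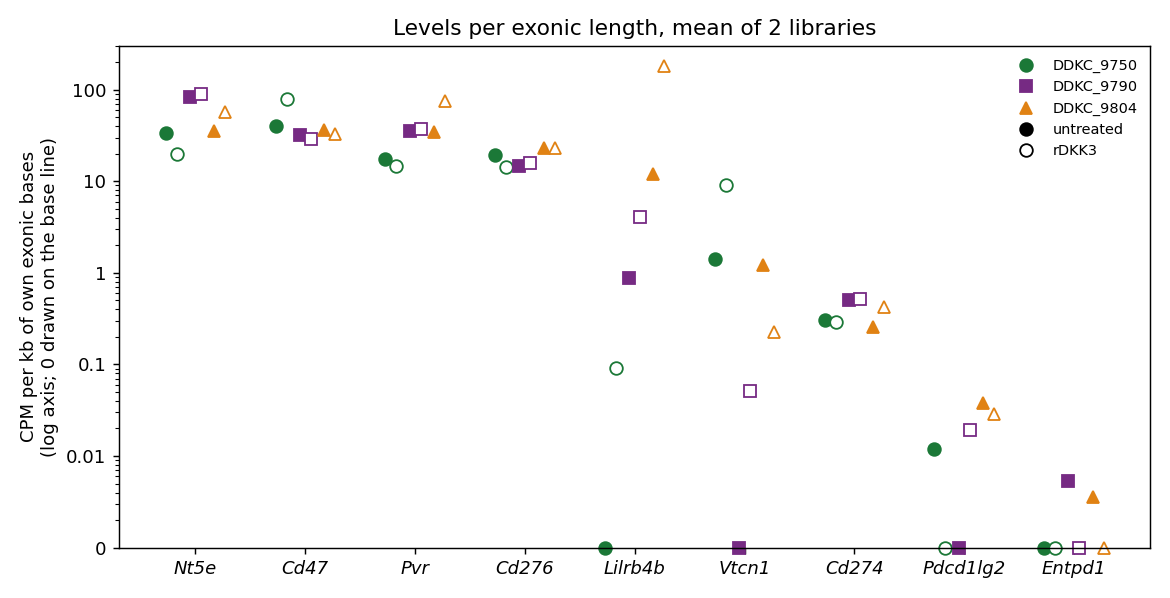
Level per exonic length (CPM per kb of exonic bases that belong to the gene alone, log y axis with 0 on the base line) of 9 members, in the order of their untreated means; symbols and colors mark the DDKC line, filled untreated and open with rDKK3, each the mean of 2 libraries. Nt5e, Cd47, Pvr and Cd276 lie between 14.4 and 90.6 CPM per kb, and Lilrb4b runs from 0 in untreated DDKC_9750 to 182 in rDKK3-treated DDKC_9804.

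Across the set, 3 members were called higher and 3 lower with rDKK3 in DDKC_9750, 2 and 1 in DDKC_9790, and 3 and 2 in DDKC_9804. In the fit over lines on summed counts, edgeR called 0 of 7 members at an adjusted p under 0.05, beside 0.00657% of all genes tested (1 of 15214). At an unadjusted p under 0.05, 1 member, Lilrb4b, passed, beside 8.29% of genes (1262). DESeq2 tested 6 members, leaving out Cd274, and called Lilrb4b, beside 0.781% of genes (102 of 13055). With the 12 libraries taken as separate samples, 1 member, Lilrb4b, was called, beside 18.1% of genes. Within lines, where libraries and not cultures are compared, 6 of 7 were called in DDKC_9750 (45.7% of all genes), 3 of 7 in DDKC_9790 (40.0%) and 5 of 7 in DDKC_9804 (55.1%). The call of Lilrb4b in DDKC_9750 rests on 2 counts. The effect of rDKK3 differed between lines for 6 of 7 members, beside 61.9% of all genes, and the untreated lines differed for 7 of 7, beside 89.9%. Since the rDKK3 contrast was known when the members were chosen, nothing is read from its counts. In bulk RNA a change in the share of cells that express a gene and a change in the RNA per cell cannot be told apart.

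Of 21 other inhibitory or costimulatory surface genes listed for tumor or antigen-presenting cells, 12 passed the filter on summed counts, with a median log2 fold change of -0.15 beside -0.01 over all genes. Among 14 tested within lines, 7 were called higher and 1 lower in DDKC_9750 (22% and 23.6% of all genes), 2 and 9 in DDKC_9790 (18.7% and 21.3%), and 2 and 8 in DDKC_9804 (24.4% and 30.6%). The genes named from this list were picked for their change over lines in the same libraries. Ceacam1, an inhibitory adhesion receptor with ITIMs of its own, rose in all 3 lines by the within-line test. In ascending order of line number it went from 4.44 to 22.1 CPM, from 0.388 to 1.23 CPM and from 5.06 to 12.1 CPM. Nectin3, an adhesion molecule related to PVR, fell in all 3, from 13.6 to 7.73 CPM, from 20.1 to 12.7 CPM and from 31.6 to 20.3 CPM. Lgals9, a TIM-3 ligand, had 208 CPM untreated and 226 CPM with rDKK3 in DDKC_9750, 85.8 and 70.2 CPM in DDKC_9790, and 50.7 and 13.5 CPM in DDKC_9804. Cd80, a B7 molecule that binds CD28 and CTLA-4, had at most 4.16 CPM on the mean in any group.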

How the data were processed

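RNA of 3 DDKC lines without and with rDKK3 was sequenced in 12 libraries. The authors aligned read pairs to GRCm39 with STAR 2.7.9a and counted them strand-specifically on GENCODE M32 basic exons in Union mode. They aggregated the exon counts per gene and deposited raw counts without normalization. Picard 2.19.2, DESeq2 1.38.0 and R 4.2.2 are named in their processing notes. All 12 count columns were matched to samples by title. Gene models and sequences were read from GENCODE M39 basic on the same build, in which 34873 of 57278 genes had the same position as in the table. Members and gene lists were chosen with earlier results of these data known. Every member is named, and of every other list no more than 4 genes, those furthest from 0 in log2 fold change on summed counts, of which 1 is not reported here.

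Counts were analysed in R 4.3.3 with edgeR 4.0.16 (TMM scaling, filterByExpr, quasi-likelihood test, Benjamini-Hochberg adjustment over all genes tested, threshold 0.05). Counts of the 2 libraries of a line and condition were summed, and line and treatment were fitted to 6 samples (15214 genes). Separate cultures are not stated for the 2 libraries. Over 12979 genes with a mean count of at least 20, their mean deviance per degree of freedom was 0.764 with a term for the library number series and 6.39 without it, so they were counted as 1 sample. Pairing by line comes from the labels, and the mean correlation of deviations was 0.818 within a line and -0.410 between lines. Tests within lines, between lines and of their difference used 12 libraries with 6 groups and the series term (15165 genes), so their p-values measure the spread between libraries, which may be technical. CPM were TMM-scaled. Scripts were tested on simulated data. The alternatives were RLE scaling, DESeq2 1.42.0, no filter, 12 libraries, no line term, each library series alone, each line left out, thinning to the shallowest sample, and prior counts of 0.5 and 5.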

Additional observations from a re-analysis of the deposited data

Results flagged for a closer look

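The difference between rDKK3 and untreated cells was unequal among the lines for 6 members, called by edgeR's interaction term of line and treatment, which also called 61.9% of all genes. Since the response to rDKK3 was known when the members were chosen, the spans are given as values from which nothing is read. The log2 fold change of Vtcn1 spanned 4.79 between DDKC_9750, where it was highest, and DDKC_9804. That of Lilrb4b spanned 1.84 between DDKC_9804 and DDKC_9790. Nt5e spanned 1.46 and Pvr 1.37, each highest in DDKC_9804 and lowest in DDKC_9750. Cd47 spanned 1.12, from DDKC_9750 down to DDKC_9790, and Cd276 spanned 0.51, from DDKC_9790 down to DDKC_9750. Depth moved with treatment, since within each library series the rDKK3 library of every line held fewer counts than the untreated one, and its part in these differences was not tested within lines.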

How the results depend on the processing

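The number of genes called over lines, 1 on summed counts, was 102 with DESeq2, 90 without the filter on low counts, 2744 with the 12 libraries as samples and 3124 with a series term added. It was 0 without the block for line, 0 after thinning, and 0 to 2 with a line left out (2 without DDKC_9804). RLE scaling and each library series alone left it at 1. Lilrb4b kept its direction throughout, with a log2 fold change of 2.43 without DDKC_9804 to 3.95 without DDKC_9790. It was called by DESeq2 (3.22), without the filter (3.25) and in the 12-library fits (3.52 and 3.56), which take the paired libraries as separate samples. The set was chosen with this response known and Lilrb4 at its head, so nothing is read from these calls. The other 6 members were called under none of the alternatives that tested them (DESeq2 gave Cd274 no adjusted p), and each turned its direction when a line was left out. The log2 fold change ran from -0.02 (without DDKC_9804) to 0.37 for Cd274, -0.20 to 0.04 (without DDKC_9750) for Cd276, -1.71 (without DDKC_9750) to 2.75 for Vtcn1, -0.13 (without DDKC_9750) to 0.43 for Cd47, -0.30 (without DDKC_9804) to 0.43 for Nt5e, and -0.09 (without DDKC_9804) to 0.61 for Pvr. Nt5e was at -0.00041 without the filter. The genes whose rDKK3 effect differed between lines numbered 9388, or 7474 without the series term. Within lines, prior counts of 0.5 and 5 moved the member values by less than the spread between library series, except Lilrb4a in DDKC_9804, which rests on 4 counts (2.88 and 0.72). With the higher library numbers alone, Cd274 in DDKC_9790 and Cd276 in DDKC_9804, both near 0, changed sign (-0.03 and -0.02). The causes were not tested.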

Other observations

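Adora1, an inhibitory receptor for adenosine that was not among the named examples and was chosen after its values were seen, had 3.94 CPM in untreated DDKC_9750 and 69.3 CPM with rDKK3, from 116 and 718 counts, a 17.6-fold difference. It had 0 counts in DDKC_9804 and 1 count in DDKC_9790. Nt5e, the enzyme that makes its ligand, was 1.69-fold lower with rDKK3 in the same line. Fn1, a ligand reported for LILRB4 and likewise chosen after its values were seen, was the most abundant gene of its list. Its untreated means were 4938 CPM in DDKC_9750, 6385 CPM in DDKC_9790 and 17258 CPM in DDKC_9804. With rDKK3 it was 1.18-fold, 1.14-fold and 1.12-fold higher in these lines.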
